A study of Saccharomyces cerevisiae with 18 samples.

Results

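The SEC genes of budding yeast take their name from mutants that could not secrete proteins, and they were collected here as every gene whose symbol in the monosome and disome count tables is SEC followed by a number. This rule found 36 genes, all of them in both tables, of 6085 genes in the monosome table and 5767 in the disome table. The rule used names only and no measured value. By function, 7 act in translocation into the endoplasmic reticulum (ER) and signal processing, 2 in the making of sugar precursors for glycans, 6 in the COPII coat, 4 in the COPI coat, 5 as SNAREs, SNARE disassembly factors or tethers at the ER, 2 at the Golgi, 6 in the exocyst and 4 in other steps of late secretion.

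Ribosome profiling counts footprints, the stretches of mRNA shielded from nuclease by a ribosome. Monosome libraries hold fragments from single ribosomes and disome libraries hold fragments from pairs of ribosomes packed against each other, as when a ribosome runs into one that has stalled. The study asked how loss of wobble-uridine tRNA modification leads to such collisions and what Hel2 does with them. Ncs2 and Elp6 are needed for those modifications, and Hel2 is the ubiquitin ligase that recognises collided ribosomes and starts quality control. All 4 strains were BY4741 of mating type a, grown in YPD, and all were labelled his3Δ1 leu2Δ0 ura3Δ0. Wild type was labelled met15Δ0 in addition. The *hel2*∆ strain carried hel2Δ::LEU2, the *ncs2*∆*elp6*∆ strain carried ncs2Δ::HIS3MX and elp6Δ::URA3, and the triple deletion *ncs2*∆*elp6*∆*hel2*∆ carried all of these alleles. The inserted markers therefore also gave each deletion strain a biosynthetic gene that wild type lacked, and by these labels only wild type was met15Δ0. Neither difference can be told apart from the deletions.

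Secretory proteins enter the ER through the Sec61 channel, leave it in COPII vesicles, and are returned from the Golgi in COPI vesicles when they belong in the ER. SNARE proteins fuse vesicles with their target membrane, and the exocyst tethers secretory vesicles at the plasma membrane before fusion. Most of these genes are essential in yeast, and several of the proteins work as subunits of fixed complexes.

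Monosome libraries numbered 3 for wild type, 2 for *hel2*∆, 3 for *ncs2*∆*elp6*∆ and 2 for the triple deletion, and each strain had 2 disome libraries. Totals lay between 2381991 and 24884873 footprints in monosome libraries and between 845707 and 2521397 in disome libraries. The SEC genes held 0.660 to 0.855% of monosome footprints and 0.675 to 0.977% of disome footprints. Total depth followed the *HEL2* genotype among monosome libraries, since the largest library without *HEL2* held 4352295 footprints and the smallest library with it held 11702547. The deleted genes behaved as labelled, with at most 6 monosome footprints on *HEL2* in the 4 libraries of its deletion strains against at least 880 in the others. The *ncs2*∆*elp6*∆ disome replicates differed little beyond sampling noise (chi-square per degree of freedom 1.12, against 2.13 to 7.83 in the other disome pairs), and they enter both comparisons of disome enrichment that use this strain. Levels below are normalised CPM, in which counts are scaled to one common library size after TMM. TMM scales libraries on the assumption that most genes do not change between them.

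In wild type, 25 of the 36 SEC genes had a monosome footprint density above that of the median gene. Density here is CPM by library totals per kilobase of gene, and the median over 5625 genes was 22.1. *SEC53* (YFL045C), the phosphomannomutase that feeds glycan and GPI anchor synthesis, was densest at 1080 ± 33.9 (SD, n = 3). *SEC14*, a phosphatidylinositol transfer protein of the Golgi, followed at 437 ± 16.6, and *SEC4*, the Rab GTPase of secretory vesicles, at 279 ± 9.10. The spread between these 3 genes was far larger than the SD of any of them. *SEC13* at 270 ± 6.53 lay within the combined SDs of *SEC4*.

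The densities spread more widely within some machines than within others. All 7 translocation genes lay between 109 and 233, with *SEC61*, the channel itself, the densest of them. The 4 COPI genes lay between 114 and 149, and the 6 COPII genes between 43.6 for *SEC12*, the exchange factor that activates Sar1, and 270 for *SEC13*, a subunit of the outer coat. All 6 exocyst genes lay below the median gene, from 9.23 ± 1.03 for *SEC8* to 14.0 ± 0.67 for *SEC10*. The sparsest SEC gene was *SEC59*, the dolichol kinase, at 7.06 ± 0.37. The other members under the median gene were *SEC1*, a regulator of SNAREs at the plasma membrane, *SEC2*, the exchange factor for Sec4, *SEC20*, a SNARE of transport back to the ER, and *SEC39*, a subunit of the Dsl1 tether at the ER.

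**Figure D1:**
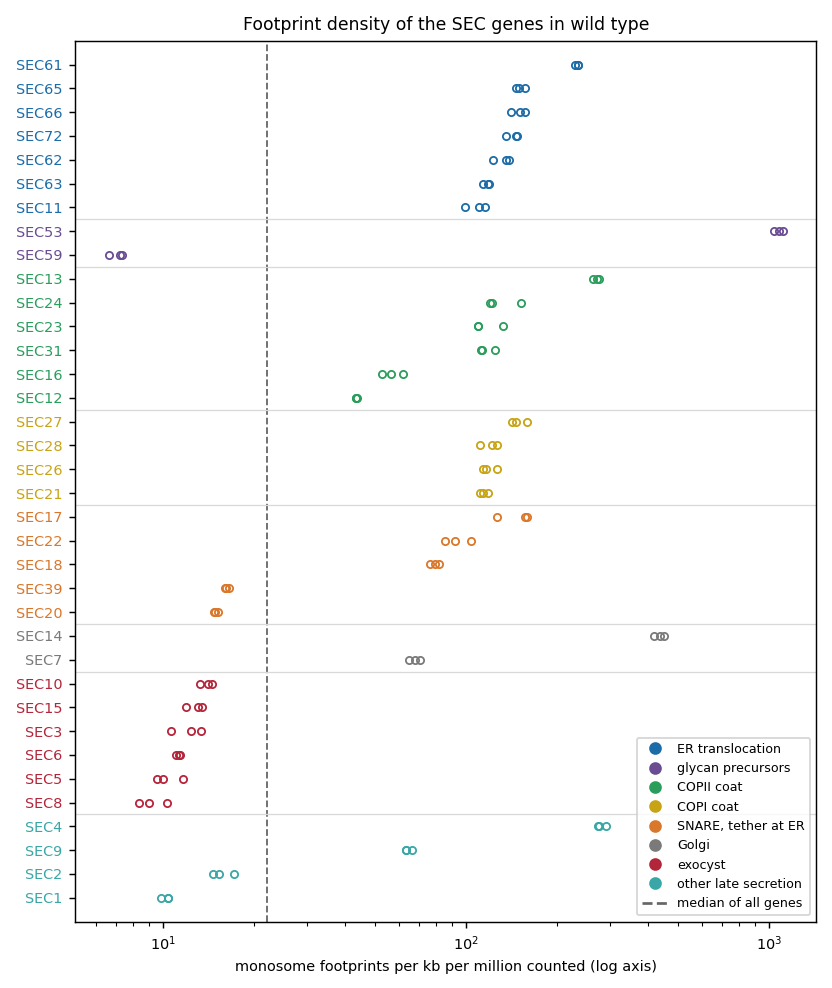
Monosome footprint density (CPM per kilobase) of each SEC gene (horizontal log axis) in the 3 wild-type libraries, 1 open circle per library, with genes grouped and coloured by role and the dashed line at the median of all genes (22.1). The 6 exocyst genes lie left of the line and all translocation, COPII and COPI genes right of it.

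Loss of Ncs2 and Elp6 lowered the footprints of *SEC53* more than those of any other SEC gene. Its monosome level was 930.2, 981 and 945 normalised CPM in wild type and 455, 433 and 479 in *ncs2*∆*elp6*∆. With *HEL2* deleted in both strains, it was 833 and 802 in *hel2*∆ and 397 and 400.0 in the triple deletion. No library with the tRNA modification genes deleted reached any library that had them. The log2 change was -1.08 ± 0.07 (SE) in the first comparison (adjusted p = 5.46e-09, edgeR) and -1.03 ± 0.07 in the second (adjusted p = 6.98e-20, edgeR). Disome footprints of *SEC53* fell further, from 1386 and 1267 normalised CPM in wild type to 431 and 422 in *ncs2*∆*elp6*∆, and its disome enrichment, which is the change in disomes set against the change in monosomes, had a log2 change of -0.53 ± 0.12 (adjusted p = 0.00449, edgeR).

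Across all members, 17 of 36 changed in monosome footprints between *ncs2*∆*elp6*∆ and wild type, 7 of them higher and 10 lower. The background was 53% of the 5281 genes tested (26.6% higher and 26.4% lower), so the share of SEC genes called, 47.2%, was near that of all genes. Their median log2 change was -0.04 against 0.02 for all genes. With *HEL2* deleted in both strains, 16 changed, 6 higher and 10 lower, against 44.2% of 5027 genes (22.5% higher and 21.7% lower). These splits depend on the scaling, because by library totals alone the median gene moved by 0.27 in the first comparison and 0.13 in the second, and the members called were then 18 higher and 4 lower in the first and 13 higher and 4 lower in the second.

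The first and second comparisons share no library. In both of them 4 SEC genes were higher, *SEC21*, *SEC27*, *SEC31* and *SEC65*, where 15.8% of 5025 genes were. Another 7 were lower in both, *SEC7*, *SEC20*, *SEC26*, *SEC53*, *SEC61*, *SEC62* and *SEC72*, where 16.1% of genes were. The sign was the same in 30 of 36 members and in 75.5% of all genes.

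Among coat genes, *SEC31*, which encodes the outer cage protein of COPII, was higher. It stood at 501, 511 and 529 normalised CPM in wild type and at 802, 799.6 and 810.2 in *ncs2*∆*elp6*∆. Without *HEL2* it stood at 529.7 and 529.6 in *hel2*∆ and at 792 and 759.8 in the triple deletion. The groups were far apart in both backgrounds, with log2 changes of 0.63 ± 0.07 (adjusted p = 1.37e-06, edgeR) and 0.56 ± 0.07 (adjusted p = 2.17e-10, edgeR). *SEC21*, the gamma subunit of COPI, rose from 364, 379 and 368 normalised CPM in wild type to 516, 538 and 489 in *ncs2*∆*elp6*∆, and from 409 and 439 in *hel2*∆ to 565 and 564 in the triple deletion. Its log2 changes were 0.46 ± 0.07 and 0.42 ± 0.07. *SEC27*, the beta-prime subunit of COPI, rose by 0.40 and 0.34. The COPI beta subunit gene *SEC26* went the other way, with log2 changes of -0.21 and -0.20, although the first turned to 0.045 when libraries were scaled by totals and the second call was lost in 7 of 11 alternatives, among them DESeq2, library totals and the omission of either *hel2*∆ replicate or of triple-deletion replicate 1. The fourth COPI gene, *SEC28*, did not pass the test in either comparison (-0.06 and -0.04).

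Translocation genes were found on both sides. *SEC62* and *SEC72*, which encode subunits of the complex that posttranslational substrates use, were lower in both backgrounds. *SEC72* stood at 92.1, 101 and 95.3 normalised CPM in wild type and at 69.5, 68.7 and 68.1 in *ncs2*∆*elp6*∆, a log2 change of -0.50 ± 0.07 (adjusted p = 3.79e-05, edgeR). *SEC62* stood at 111 and 103 in *hel2*∆ and at 67.8 and 83.6 in the triple deletion, a change of -0.47 ± 0.11 (adjusted p = 0.000323, edgeR). *SEC62* changed by -0.48 in *ncs2*∆*elp6*∆ against wild type, and *SEC72* by -0.32 in the triple deletion against *hel2*∆. The latter call was lost in 4 of 11 alternatives, DESeq2 and library totals among them. *SEC65*, a subunit of the signal recognition particle that brings nascent chains to the ER, was higher: 129 and 116 in *hel2*∆ became 167 and 195 in the triple deletion, a log2 change of 0.59 ± 0.09 (adjusted p = 4.05e-07, edgeR), and the change against wild type was 0.38 ± 0.07. *SEC61* had changes of -0.33 and -0.37, and by library totals the first was -0.072 and did not pass (adjusted p = 0.372, edgeR). *SEC63*, the J-domain partner of the channel, *SEC66*, another subunit of its complex, and *SEC11*, the catalytic subunit of signal peptidase, passed the test in neither comparison.

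Further along the pathway, *SEC7*, the large exchange factor for Arf at the Golgi, fell from 457, 485 and 473 normalised CPM in wild type to 316, 345 and 339.9 in *ncs2*∆*elp6*∆. The log2 change was -0.51 ± 0.07 (adjusted p = 1.49e-05, edgeR). With *HEL2* deleted in both strains the change was only -0.17 ± 0.07, from 491 and 504 to 447 and 434. The difference between these changes is the same quantity as the difference in the effect of deleting *HEL2* between backgrounds, 0.33 ± 0.10, and it did not pass the test (adjusted p = 0.0589, edgeR). *SEC20* stood at 19.9, 20.1 and 19.5 in wild type and at 14.1, 13.9 and 15.8 in *ncs2*∆*elp6*∆, and at 20.6 and 19.0 in *hel2*∆ against 12.7 and 13.2 in the triple deletion. Its changes were -0.46 ± 0.10 and -0.59 ± 0.20, the second from as few as 35 footprints in a library. With *HEL2* deleted in both strains, the call of *SEC20* was lost in 6 of 11 alternatives and that of *SEC7* in 7 of 11. For both genes these included DESeq2 and library totals.

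Of the members called in the first comparison only, *SEC6*, an exocyst subunit, was higher by 0.41 ± 0.08 (adjusted p = 0.000806, edgeR), from 32.0, 31.8 and 30.3 normalised CPM in wild type to 42.8, 43.3 and 39.5 in *ncs2*∆*elp6*∆. Smaller calls were *SEC10* and *SEC13* higher (0.21 and 0.22) and *SEC9*, *SEC17* and *SEC12* lower (-0.36, -0.32 and -0.25), with *SEC12* at 0.010 by library totals. There *SEC17* (-0.065) and *SEC9* (-0.10) lost their calls too, and that of *SEC10* was lost in 8 of 13 alternatives, among them DESeq2 and RLE size factors. With monosome libraries thinned to equal depth, *SEC6* and *SEC13* lost their calls. Called in the second only were *SEC16*, the scaffold of ER exit sites, and *SEC4* higher (0.33 and 0.20) and *SEC23*, *SEC22* and *SEC5* lower (-0.37, -0.33 and -0.31). Of these, the calls of *SEC4*, *SEC22* and *SEC5* were lost in 6, 6 and 8 of 11 alternatives, including DESeq2 and the omission of either *hel2*∆ replicate, and that of *SEC23* without *hel2*∆ replicate 2. Whether these differ between backgrounds was tested with all 4 strains in the fit, and 0 of 36 members passed in monosome footprints, where 5.29% of 5354 genes did (2.99% higher and 2.3% lower). At an unadjusted p under 0.05 it was 6 members, and DESeq2 called 1.

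**Figure D2:**
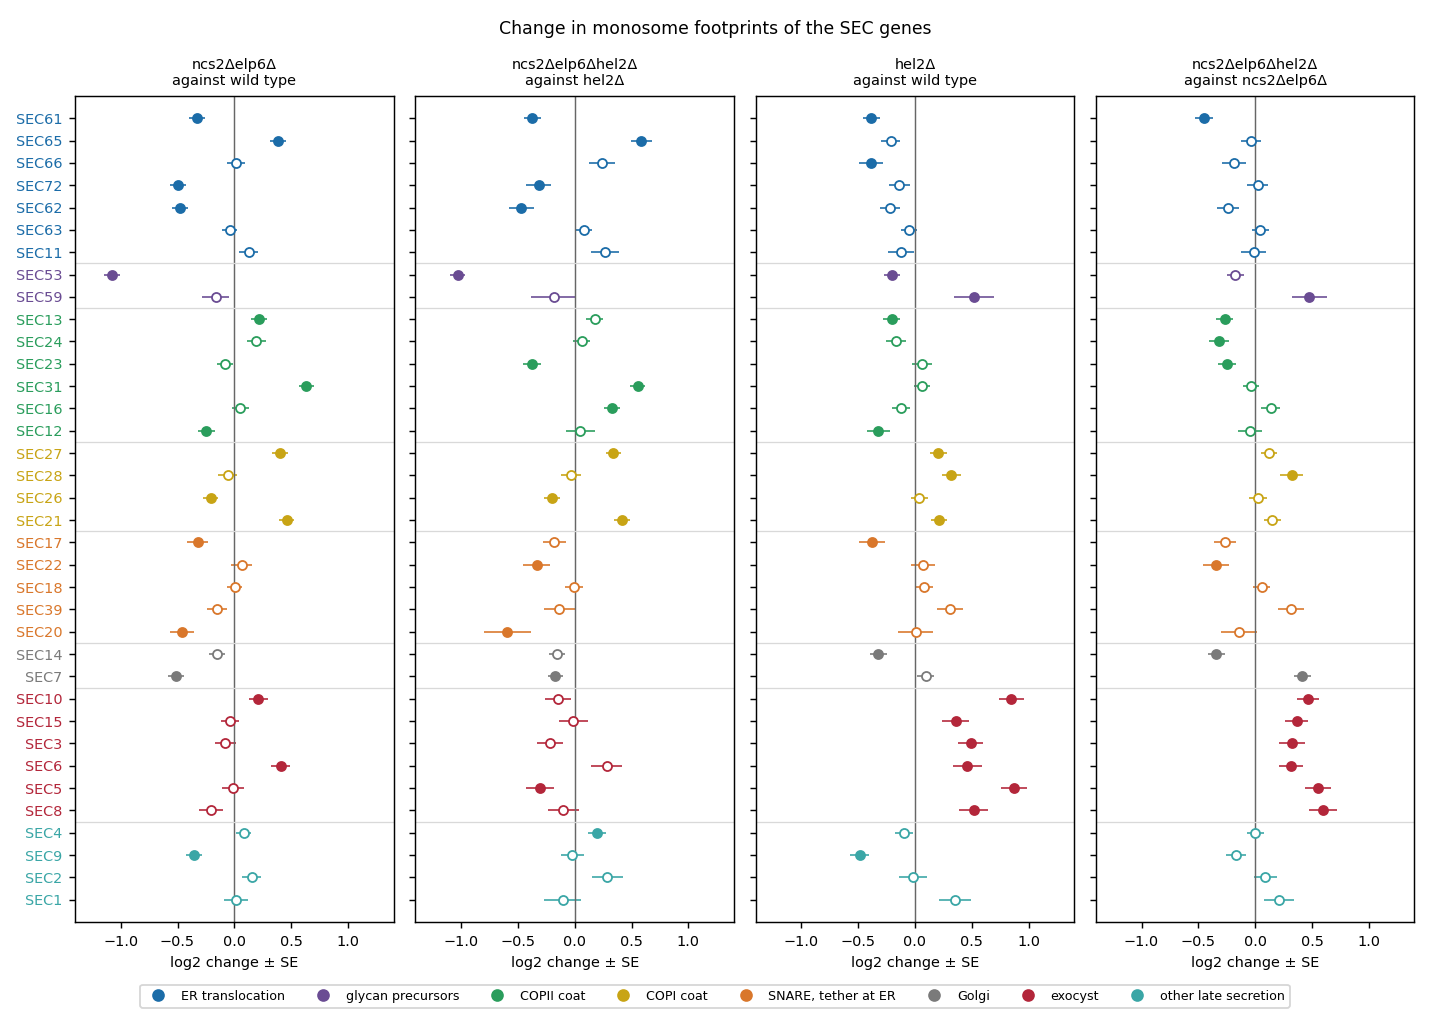
Log2 change in monosome footprints (horizontal axis, bars ± 1 SE) of the 36 SEC genes in the 4 strain comparisons, with filled circles for members called at an adjusted p under 0.05 and open circles for the rest. *SEC53* lies near -1 in both left panels, and the 6 exocyst genes are filled and right of 0 in both right panels.

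Deletion of *HEL2* raised monosome footprints on all 6 exocyst genes among the members, in both backgrounds, where 14.7% of 5225 genes were higher in the wild-type background and 12% of 5318 in the other. *SEC5* stood at 33.9, 33.0 and 37.8 normalised CPM in wild type and at 64.7 and 61.9 in *hel2*∆. *SEC10* stood at 40.3, 45.1 and 40.8 in wild type and at 79.6 and 70.6 in *hel2*∆. For both, every *hel2*∆ library lay well above every wild-type library, and the log2 changes were 0.87 ± 0.12 (adjusted p = 3.29e-05, edgeR) and 0.85 ± 0.11 (adjusted p = 2.41e-05, edgeR).

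In the *ncs2*∆*elp6*∆ background the same comparison gave a smaller change for each. *SEC5* went from 38.1, 35.1 and 31.3 to 46.8 and 53.7 in the triple deletion, a log2 change of 0.55 ± 0.12 (adjusted p = 0.00274, edgeR). *SEC10* went from 51.7, 48.4 and 46.8 to 65.7 and 68.1, a change of 0.46 ± 0.10 (adjusted p = 0.0026, edgeR). The differences between backgrounds, -0.31 ± 0.16 for *SEC5* and -0.38 ± 0.14 for *SEC10*, did not pass the test (adjusted p = 0.276 and 0.123, edgeR). *SEC8* had the largest change here: 30.9, 32.4 and 25.7 in *ncs2*∆*elp6*∆ against 48.6 and 41.9 in the triple deletion, 0.60 ± 0.13 (adjusted p = 0.00285, edgeR), beside 0.52 ± 0.13 in the wild-type background.

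The remaining exocyst members rose by less. *SEC3* was higher by 0.49 and 0.32 in the wild-type and *ncs2*∆*elp6*∆ backgrounds, *SEC6* by 0.46 and 0.31, and *SEC15* by 0.36 and 0.36. For *SEC3* in the *ncs2*∆*elp6*∆ background the groups nearly met, with 53.3, 49.4 and 58.6 normalised CPM against 58.8 and 72.2. Over the 6 genes the median log2 change was 0.50 and 0.41, beside medians over all genes of 0.03 and 0.00. Of the other exocyst subunits, *EXO70* was also higher in both backgrounds (0.53 and 0.44) and *EXO84* was called in neither. In the *ncs2*∆*elp6*∆ background, 4 of the 6 were called by DESeq2, and 4 without *ncs2*∆*elp6*∆ replicate 1 or 2. *SEC6* lost its call there in 8 of 12 alternatives, and *SEC15* lost its call in the wild-type background in 5 of 12. These values also rested on few *HEL2*-deletion libraries. Without *hel2*∆ replicate 1, 2 of the 6 exocyst genes were called in the wild-type background, and without triple-deletion replicate 2, 3 were called in the other.

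A pair of gene properties moved with these changes, and their part in them was not tested. The exocyst genes span 2418 to 4011 base pairs and had the low densities given above, and the effect of deleting *HEL2* was higher for longer genes, with Spearman's rho across genes of 0.28 over 5202 genes in the wild-type background and 0.33 over 5290 in the other. Within the 36 members rho was 0.55 and 0.54. With the mean monosome level over all 10 libraries (normalised CPM, not divided by length) as the property, rho was -0.31 over 5225 genes and -0.16 over 5318, and -0.43 in both backgrounds over members. This level includes the libraries compared. Genes are not independent replicates, and all points of a comparison share their libraries, so these are descriptions. Library depth cannot be told apart from deletion of *HEL2*. With all monosome libraries thinned to the depth of the smallest, 6 of the 6 exocyst genes were called in the wild-type background and 5 in the other.

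**Figure D3:**
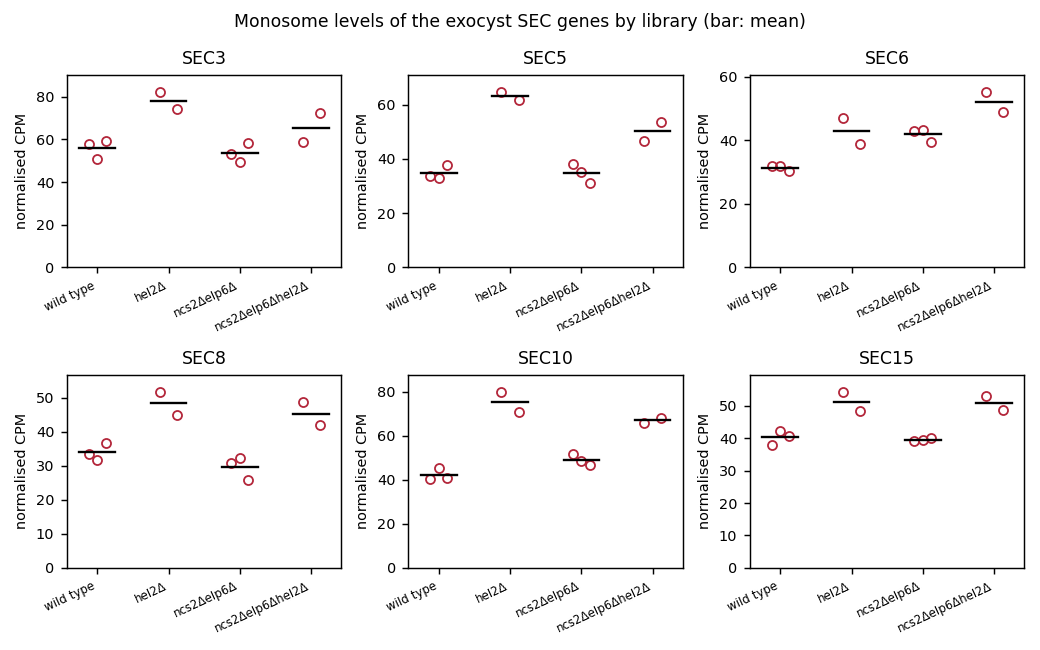
Monosome levels (normalised CPM, vertical axes from 0) of the 6 exocyst SEC genes in each library of the 4 strains, with open circles for libraries and black bars for means. For every gene, both *hel2*∆ libraries lie above the 3 wild-type libraries and both triple-deletion libraries lie above the 3 *ncs2*∆*elp6*∆ libraries.

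Over all members, deletion of *HEL2* changed 18 of 36 in the wild-type background, 10 higher and 8 lower, against 31.9% of 5225 genes (14.7% higher and 17.2% lower). In the *ncs2*∆*elp6*∆ background it changed 15, 9 higher and 6 lower, against 24.3% of 5318 genes (12% higher and 12.2% lower). By library totals these splits became 19 higher and 1 lower, and 13 higher and 2 lower, with the median gene moved by 0.27 and 0.14. By RLE size factors the split in the wild-type background was 8 higher and 10 lower. With *hel2*∆ replicate 1 left out, 4 members were called in the wild-type background.

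These comparisons share no library either. Higher in both were 8 members, the 6 exocyst genes with *SEC28* and *SEC59*, where 5.58% of 5199 genes were. Lower in both were 3, *SEC13*, *SEC14* and *SEC61*, where 7.31% were. The sign was the same in 28 of 36 members and in 68.6% of all genes.

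*SEC61* was lower in all 4 strain comparisons of monosome footprints, which reuse the same libraries in pairs and are not independent of each other. It stood at 393, 393 and 377 normalised CPM in wild type, at 295 and 292 in *hel2*∆, at 293, 322 and 320.5 in *ncs2*∆*elp6*∆ and at 232 and 221 in the triple deletion. Each deletion strain lay below wild type in every library, and the triple deletion lay below all others. The effect of deleting *HEL2* was -0.38 ± 0.07 in the wild-type background (adjusted p = 0.000722, edgeR) and -0.45 ± 0.08 in the *ncs2*∆*elp6*∆ background (adjusted p = 0.000919, edgeR). By library totals the first was -0.14 and did not pass the test (adjusted p = 0.118, edgeR).

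*SEC14* fell from 523, 573 and 523 normalised CPM in wild type to 430.2 and 422 in *hel2*∆, and from 502, 467 and 497 in *ncs2*∆*elp6*∆ to 369 and 392 in the triple deletion. Its log2 changes were -0.32 ± 0.08 and -0.34 ± 0.07, and the groups did not overlap. The first was -0.076 by library totals and lost its call there (adjusted p = 0.386, edgeR) and without either *hel2*∆ replicate, and the second lost its call without triple-deletion replicate 1. *SEC13* had changes of -0.20 and -0.27, and the first turned to 0.041 by library totals. Its calls were lost in 7 and 4 of 12 alternatives, both without either replicate of the *HEL2* deletion strain. *SEC9*, the plasma membrane SNARE related to SNAP-25, stood at 145, 147 and 144 in wild type and at 106 and 99.4 in *hel2*∆, a change of -0.48 ± 0.08 (adjusted p = 0.000318, edgeR). In the *ncs2*∆*elp6*∆ background, where its level was already 115, 109.5 and 118, the triple deletion stood at 104 and 98.2, a change of -0.17 ± 0.09 that did not pass (adjusted p = 0.184, edgeR).

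*SEC59* stood at 13.1, 13.6 and 11.5 normalised CPM in wild type and at 18.7 and 17.4 in *hel2*∆, and at 11.4, 12.4 and 10.5 in *ncs2*∆*elp6*∆ and 15.2 and 16.1 in the triple deletion. It was higher by 0.52 ± 0.17 and 0.47 ± 0.15, from as few as 42 footprints in a library, and the calls were lost in 5 and 6 of 12 alternatives, DESeq2 among them. *SEC28*, the epsilon subunit of COPI, was higher by 0.32 in both backgrounds. In both backgrounds, both genes lost their call when either replicate of the strain without *HEL2* was left out. *SEC7* was higher by 0.41 ± 0.07 in the *ncs2*∆*elp6*∆ background (adjusted p = 0.000916, edgeR), which brought it from the levels given above to 447 and 434.

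Called in 1 background only were *SEC66*, changed by -0.39 ± 0.10 in *hel2*∆ (109, 116 and 97.3 against 73.6 and 87.7 normalised CPM, adjusted p = 0.0094, edgeR), and *SEC22*, an R-SNARE of ER and Golgi traffic, changed by -0.35 ± 0.11 in the triple deletion (76.7, 65.1 and 79.0 against 60.2 and 55.1, adjusted p = 0.0353, edgeR). *SEC12*, *SEC17*, which encodes alpha-SNAP, and *SEC53* were lower in *hel2*∆ (-0.32, -0.38 and -0.20), and *SEC21* and *SEC27* were higher (0.21 and 0.20). By library totals *SEC12* stood at -0.076, *SEC17* at -0.13 and *SEC53* at 0.043, none of them called, and each lost its call in 5 of 12 alternatives, including the omission of either *hel2*∆ replicate or of wild-type replicate 2. *SEC21* and *SEC27* each lost theirs in 7 of 12, including the same omissions. *SEC66* was not called by library totals (-0.14) or without wild-type replicate 2 or *hel2*∆ replicate 1, and *SEC22* was lost in 6 of 12, including the omission of either triple-deletion replicate. The inner COPII coat genes *SEC24* and *SEC23* were lower in the triple deletion (-0.32 and -0.25), and both calls were lost by library totals and without triple-deletion replicate 2.

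In disome footprints of wild type, the SEC genes spread on both sides of the median gene. The ratio of disome to monosome footprints was taken between libraries of the same number, which the sources do not state to be from the same culture, and was expressed on the log2 scale relative to the median of 5114 genes in that pair. The median over the 36 members was -0.11 in wild type, -0.12 in *hel2*∆, 0.03 in *ncs2*∆*elp6*∆, with 0.13 for the triple deletion. From single pairs it was -0.26 and -0.01 in wild type, -0.0061 and 0.040 in *hel2*∆, 0.071 and 0.10 in *ncs2*∆*elp6*∆ and 0.12 and 0.13 in the last, so the order of wild type and *hel2*∆ was not settled and the sign in *hel2*∆ depended on the pair. The members with the highest ratio in wild type were the partners of the inner COPII coat, *SEC23* (1.02 and 1.07) and *SEC24* (0.73 and 1.11), at percentiles 88.5 and 85.9 of all genes. The lowest were *SEC66* (-1.38 and -1.80) and *SEC2* (-2.36 and -0.76, from 8 and 29 disome footprints). In the triple deletion *SEC23* stood at percentile 96.9.

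Disome enrichment changed in 12 of 36 members between *ncs2*∆*elp6*∆ and wild type, 8 higher and 4 lower, against 18.7% of 5389 genes (10% higher and 8.68% lower). The median over members was 0.16 and that over all genes was 0.00. Among the 7 translocation genes, 4 were higher (*SEC63*, *SEC65*, *SEC66* and *SEC72*) and *SEC61* was lower. Left-out libraries changed this count, since without *ncs2*∆*elp6*∆ disome replicate 2 it was 4 members and without replicate 1 it was 7.

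The largest change was that of *SEC59*, 2.11 ± 0.46 (adjusted p = 0.00367, edgeR), but it rested on 6 disome footprints in each wild-type library, against 10 and 23 in *ncs2*∆*elp6*∆. *SEC9* had 64.3 and 97.6 normalised disome CPM in wild type and 125 and 116 in *ncs2*∆*elp6*∆, while its monosome level fell, and its enrichment was higher by 0.96 ± 0.19 (adjusted p = 0.00195, edgeR). Its disome libraries alone gave 0.55 with adjusted p = 0.0935 (edgeR), so the call used both kinds of library. The same was true of *SEC72*, higher by 0.83 ± 0.19 (adjusted p = 0.00466, edgeR), with 45.5 and 46.3 normalised disome CPM in wild type and 53.5 and 59.6 in *ncs2*∆*elp6*∆, and 0.28 in disomes alone (adjusted p = 0.368, edgeR).

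Lower enrichment was found for *SEC3*, *SEC13*, *SEC53* and *SEC61*. *SEC3* had 66.9 and 61.1 normalised disome CPM in wild type and 30.6 and 37.6 in *ncs2*∆*elp6*∆, a change in enrichment of -0.79 ± 0.23 (adjusted p = 0.0241, edgeR). Its monosome level was about the same in both strains. This call of *SEC3* was lost in 3 of 21 alternatives, among them a block by culture number, and that of *SEC61* in 1 of 21. The calls for *SEC31*, *SEC63*, *SEC65* and *SEC66* (0.36, 0.45, 0.43 and 0.68) were the least stable, lost in 16, 14, 13 and 11 of 21 alternatives.

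Deleting *HEL2* in the *ncs2*∆*elp6*∆ background changed disome enrichment of 7 of 36 members, 6 higher and 1 lower, against 17.1% of 5017 genes (8.95% higher and 8.17% lower). The 6 were *SEC61*, *SEC13*, *SEC23*, *SEC26*, *SEC14* and *SEC24*, of which *SEC13*, *SEC23* and *SEC24* are COPII genes. *SEC14* and *SEC24*, whose monosomes fell (-0.34 and -0.32), were not called from disome libraries alone. *SEC24* lost its call in 5 of 20 alternatives. This comparison shares the *ncs2*∆*elp6*∆ libraries with the one before, so opposite signs in the pair are not independent. Opposite calls were found for 3 members: *SEC18* was higher and then lower, where 2.69% of 5016 genes were, and *SEC13* and *SEC61* were lower and then higher, where 3.25% were.

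*SEC61* had a log2 disome to monosome ratio of -0.46 and -0.39 in wild type, -0.62 and 0.00 in *hel2*∆, -0.86 and -1.02 in *ncs2*∆*elp6*∆ and 0.13 and -0.16 in the triple deletion. The *ncs2*∆*elp6*∆ pairs were lowest and the triple-deletion pairs highest on average, with the *hel2*∆ pairs far apart. Enrichment changed by -0.57 ± 0.13 in *ncs2*∆*elp6*∆ against wild type (adjusted p = 0.00634, edgeR) and by 0.96 ± 0.16 in the triple deletion against *ncs2*∆*elp6*∆ (adjusted p = 2.34e-05, edgeR). In the second case disomes rose, from 139 and 136 to 222 and 173 normalised disome CPM, while monosomes fell.

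For *SEC13* the ratio was -0.26 and -0.32 in wild type, -0.08 and -0.28 in *hel2*∆, -0.95 and -0.89 in *ncs2*∆*elp6*∆ and -0.14 and -0.36 in the triple deletion. Only the *ncs2*∆*elp6*∆ pairs stood apart from the other 3 strains. The changes in enrichment were -0.71 ± 0.14 (adjusted p = 0.00144, edgeR) and 0.70 ± 0.14 (adjusted p = 0.000452, edgeR). *SEC18*, the ATPase that takes SNARE complexes apart, went the other way, and its monosome level passed none of the tests. Its ratio was 0.03 and 0.11 in wild type, 0.20 and 0.34 in *hel2*∆, 0.90 and 0.83 in *ncs2*∆*elp6*∆ and 0.39 and 0.49 in the triple deletion. Its enrichment changed by 0.78 ± 0.13 (adjusted p = 0.000376, edgeR) and then by -0.42 ± 0.13 (adjusted p = 0.0205, edgeR), and the second call was lost in 6 of 20 alternatives.

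*SEC23*, the subunit of the inner COPII coat that stimulates the GTPase Sar1, was the member for which the effect of deleting *HEL2* on disome enrichment differed between backgrounds. Its ratio was 1.02 and 1.07 in wild type, 0.64 and 0.75 in *hel2*∆, 0.84 and 0.66 in *ncs2*∆*elp6*∆ and 1.29 and 1.58 in the triple deletion. Both triple-deletion pairs lay above all others. Deletion of *HEL2* gave a log2 change in enrichment of -0.31 ± 0.17 in the wild-type background (adjusted p = 0.316, edgeR) and of 0.70 ± 0.12 in the *ncs2*∆*elp6*∆ background (adjusted p = 7.31e-05, edgeR). The difference, 0.99 ± 0.21, passed the test (adjusted p = 0.00683, edgeR), for 1 of 36 members where 3.4% of 5114 genes passed (1.54% higher and 1.86% lower). It held in all 25 alternatives run. In the triple deletion against *hel2*∆, which reuses the same libraries and is not separate support, the change was 0.73 ± 0.16 (adjusted p = 0.00492, edgeR), and this call was lost without *hel2*∆ monosome replicate 2 (adjusted p = 0.0692, edgeR).

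**Figure D4:**
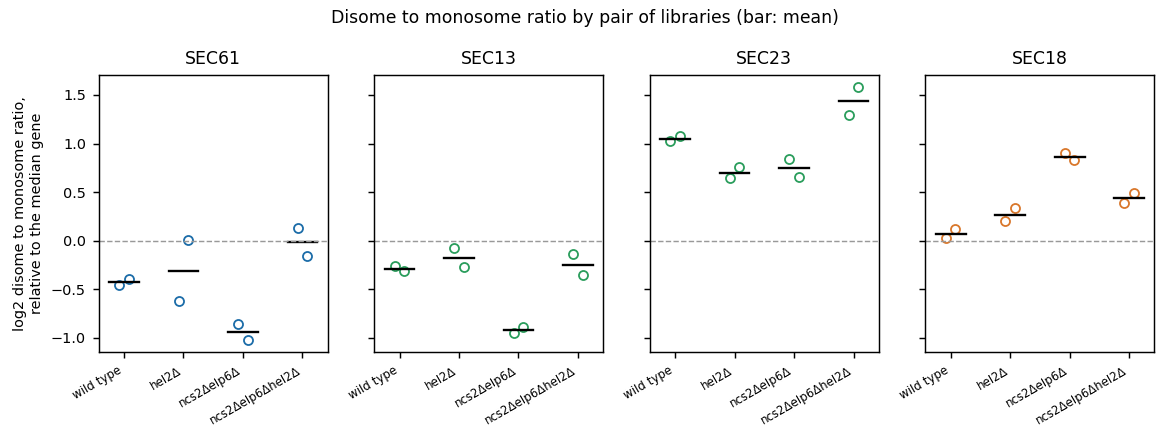
Log2 ratio of disome to monosome footprints relative to the median gene (vertical axis, dashed line at 0) for *SEC61*, *SEC13*, *SEC23* and *SEC18* in each same-numbered pair of libraries of the 4 strains, with circles for pairs and bars for means. The *ncs2*∆*elp6*∆ pairs are lowest for *SEC61* and *SEC13* and highest for *SEC18*, and the triple-deletion pairs are highest for *SEC23*.

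In the other comparisons few members were called in disome enrichment. In simulated data for *ncs2*∆*elp6*∆ against wild type, the enrichment fit recovered 53% of changes of 1 on the log2 scale, and the monosome fit 99%. Deletion of *HEL2* in the wild-type background changed 2 of 36 (5.56%), *SEC63* and *SEC7*, both higher, near the 5.2% of 4999 genes (2.4% higher and 2.8% lower). At an unadjusted p under 0.05 (edgeR) it was 6 members, and 9 in the triple deletion against *hel2*∆. *SEC7* had 316 and 339.9 normalised disome CPM in wild type and 518 and 535 in *hel2*∆, and its enrichment was higher by 0.58 ± 0.15 (adjusted p = 0.0329, edgeR). *SEC63* had 131 and 138 in wild type and 227 and 182 in *hel2*∆, and its enrichment was higher by 0.64 ± 0.17 (adjusted p = 0.0383, edgeR). The count was 0 without wild-type monosome replicate 1 or 2, *hel2*∆ monosome replicate 1 or 2, or wild-type disome replicate 1, and 7 without wild-type disome replicate 2.

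Loss of Ncs2 and Elp6 without *HEL2* changed 2 members, *SEC23* and *SEC28*, both higher, against 9.03% of 5030 genes (4.55% higher and 4.47% lower). *SEC28* had 128 and 116 normalised disome CPM in *hel2*∆ and 184 and 185 in the triple deletion, and its enrichment was higher by 0.65 ± 0.16 (adjusted p = 0.012, edgeR). Without *hel2*∆ monosome replicate 2, 0 members were called, and without *hel2*∆ disome replicate 1, 5 were. Exocyst genes, which rose together in monosomes without *HEL2*, passed the test of enrichment in neither comparison of its deletion, with medians over the 6 of -0.35 and -0.03. In *hel2*∆ against wild type their changes ran from -0.90 to 0.17. Their disome counts were low, with as few as 15 footprints for *SEC15* and 20 for *SEC8* in *ncs2*∆*elp6*∆, so the missing calls do not show that enrichment was unchanged.

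**Figure D5:**
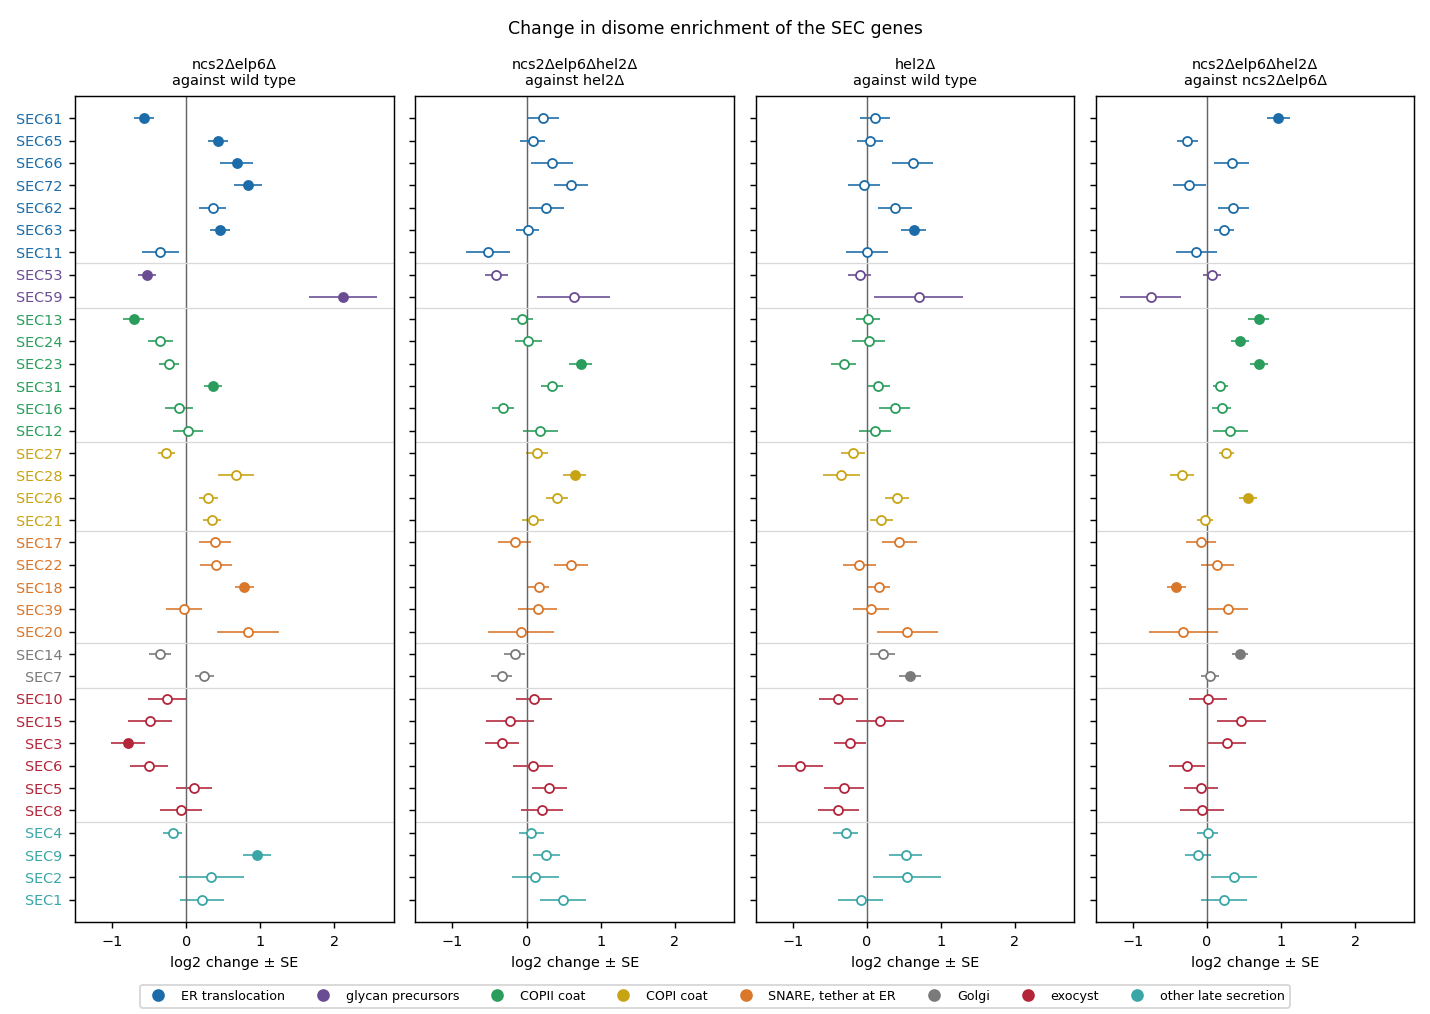
Log2 change in disome enrichment (horizontal axis, bars ± 1 SE) of the 36 SEC genes in the 4 strain comparisons, with filled circles for members called at an adjusted p under 0.05 and open circles for the rest. *SEC61* and *SEC13* lie left of 0 in the leftmost panel and right of 0 in the rightmost, and *SEC59* has the widest bar in the leftmost panel.

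The SEC genes work with partners that carry other names, and 43 such genes were listed by machine, all of them tested. Between *ncs2*∆*elp6*∆ and wild type, 12 partners were higher and 15 lower in monosomes, which is 62.8% of them beside 53% of all genes (26.6% higher and 26.4% lower). All partner counts and values are by TMM in the main fits and were not recomputed by library totals or in any other alternative. Partner changes ran from -0.91 to 0.71 in this comparison, and from -1.09 to 0.75 with *HEL2* deleted in both strains. The partners named here are examples. *UFE1*, the ER SNARE that works with Sec20, was lower, with changes of -0.82 against wild type and -1.09 with *HEL2* deleted in both strains, and *SRP21*, a subunit of the signal recognition particle as Sec65 is, likewise (-0.71 and -0.85), whereas *SRP54* of the same particle was higher by 0.29 and 0.64. Deletion of *HEL2* gave 7 higher and 11 lower in the wild-type background, where 14.7% and 17.2% of all genes were, and 7 higher and 8 lower in the other, where 12% and 12.2% were. All 4 late partners, the SNAREs *SNC1*, *SNC2*, *SSO1* and *SSO2*, were lower in *hel2*∆ (-0.45, -0.77, -0.34 and -0.36), as was *SEC9*, which pairs with them at the plasma membrane. All 4 Golgi partners were called in *hel2*∆ too, 3 of them higher and 1 lower.

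In disome enrichment, 11 partners were higher and 4 lower in *ncs2*∆*elp6*∆ against wild type, where 10% and 8.68% of all genes were. After deletion of *HEL2* in that background 4 were higher and 5 lower, where 8.95% and 8.17% were, and the comparisons share the *ncs2*∆*elp6*∆ libraries. *SSS1*, the gamma subunit of the channel built on Sec61, was lower in both (-0.77 and -1.15), unlike *SEC61*. The COPI genes *RET2* and *COP1* were lower and then higher, by -1.17 and 0.95 and by -0.39 and 0.74, as *SEC13* and *SEC61* were. For both partners and for *SEC23*, the effect of deleting *HEL2* differed between backgrounds (1.41 for *RET2* and 0.94 for *COP1*, adjusted p = 0.00117 and 0.00677, edgeR), as it did for the tether subunit *TIP20* (1.24, adjusted p = 0.0384, edgeR). These were 3 of 43 partners, where 3.4% of all genes passed. Unlike *SEC23*, these partners were not run in the alternatives, so the stability of their calls is not known.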

How the data were processed

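Unnormalised footprint counts of each open reading frame were deposited by the authors, with 10 monosome libraries in a first table and 8 disome libraries in a second. The authors removed adapters, discarded noncoding RNA and mapped the rest uniquely to the sense strand of open reading frames, with at most 1 mismatch. The submitters' processing notes name FastQC 0.11.7, STAR 2.5.3a, Bowtie 1.2.3 and the build sacCer3. Removal of PCR duplicates was not stated for footprints, so replicate error is the only check on counting error.

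Groups came from the sample labels. Whole tables were fitted in edgeR 4.0.16 (R 4.3.3, quasi-likelihood F tests, robust dispersions) after TMM scaling, and genes of low count were dropped by filterByExpr. Fits held the strains compared, Benjamini-Hochberg adjustment ran over all genes tested, and an adjusted p under 0.05 was called. All 36 members passed the filter in every fit. Disome enrichment was the interaction of library type and strain over genes in both tables, and the effect of background was the difference of 2 changes with all strains in the fit. Ratios used a prior count of 2. Gene lengths came from the RefSeq gene table and span introns, which shared 5716 of the 6085 monosome identifiers. Labels and the study call the libraries biological replicates, and p-values measure the spread between them. Alternatives included DESeq2 1.42.0, RLE factors, library totals, no filter, thinned depth, blocks and leaving out each library. Library totals and leaving the third monosome replicates unused were chosen after seeing the data. Scripts were tested on simulated data.

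The members, their roles and the list of partners were chosen with earlier results of these data known. Values in every library were given for the 3 called members with the largest change in each direction, for members called in opposite directions in the pair of enrichment comparisons that share *ncs2*∆*elp6*∆, and for members called in a test between backgrounds. Exocyst genes and other members given in full beyond these were chosen after their values were seen. No sequences are shown.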

Additional observations from a re-analysis of the deposited data

Results flagged for a closer look

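*SEC23* was singled out because the effect of deleting *HEL2* on its disome enrichment differed between backgrounds in a test of the difference itself. The difference was 0.99 ± 0.21 on the log2 scale (SE, adjusted p = 0.00683, edgeR), from -0.31 in the wild-type background to 0.70 in the *ncs2*∆*elp6*∆ background. Both changes rest on 2 disome libraries per strain. The groups of 2 or 3 libraries are too small for a search for single libraries that stand apart.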

How the results depend on the processing

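Over the 90 calls of single members, 1288 alternative results were computed: 1029 kept direction and call, 255 kept direction and lost the call, and 4 changed sign, all by library totals (*SEC26* 0.045 and *SEC12* 0.010 in *ncs2*∆*elp6*∆ against wild type, *SEC53* 0.043 and *SEC13* 0.041 in *hel2*∆ against wild type, all in monosomes). For 31 calls no alternative lost the call. By DESeq2, 9 members were called in monosomes of the triple deletion against *hel2*∆ in place of 16, 1 in enrichment there in place of 2, and 1 and 4 differed between backgrounds in monosomes and enrichment in place of 0 and 1. By library totals these were 2 and 2 between backgrounds, and 0 in enrichment of *hel2*∆ against wild type in place of 2, where thinned depth gave 1, all 4 strains in the fit 5, and disomes alone 1. Disomes alone gave 9 for the triple deletion against *hel2*∆. A prior count of 0.5 gave median ratios of -0.064 in *hel2*∆, 0.057 in *ncs2*∆*elp6*∆, with 0.17 for the triple deletion. Median density was 129 with TMM-scaled library sizes and 112 without. The cause of these differences was not tested.

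Leaving out 1 library gave these ranges of members called in monosomes: 16 to 18 in *ncs2*∆*elp6*∆ against wild type, 4 to 19 in *hel2*∆ against wild type, 8 to 13 in the triple deletion against *ncs2*∆*elp6*∆, 8 to 18 against *hel2*∆, and 0 to 2 between backgrounds. In *hel2*∆ against wild type it was 10 without wild-type replicate 2, 4 without *hel2*∆ replicate 1 and 8 without *hel2*∆ replicate 2. In the triple deletion it was 8 and 9 against *ncs2*∆*elp6*∆ without its own replicate 1 and 2, and 9 and 8 against *hel2*∆ without *hel2*∆ replicate 1 and 2. Between backgrounds it was 1 and 2 without wild-type replicate 1 and 3. In enrichment the ranges were 4 to 13, 0 to 7, 5 to 7 and 0 to 5 in the same order, and 1 to 4 between backgrounds. Enrichment between backgrounds was called for 4 without wild-type disome replicate 2, 2 and 3 without *hel2*∆ disome replicate 1 and 2, and 2 without triple-deletion disome replicate 2. In the triple deletion against *hel2*∆ enrichment was called for 1 without *hel2*∆ monosome replicate 1 or triple-deletion monosome replicate 2, and 4 without *hel2*∆ disome replicate 2, and in *hel2*∆ against wild type for 1 without *hel2*∆ disome replicate 1 or 2. Median ratios with 1 pair lay between -0.26 and -0.01 in wild type, -0.0061 and 0.040 in *hel2*∆, 0.071 and 0.10 in *ncs2*∆*elp6*∆, and at 0.12 and 0.13 in the triple deletion. Median density lay between 109 and 114.

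Between strains, same-numbered libraries did not deviate together (correlations between -0.19 and 0.06), so the main fits did not use the numbers to pair samples. The disome to monosome ratios did use them, to pair libraries within a strain, and these correlations did not test that pairing. With the replicate number as a block, members called in monosomes were 16, 22, 10 and 12 in the order above, and in enrichment 9, 2, 7 and 2. Disome depth limits members with few footprints, such as *SEC59*, *SEC20*, *SEC2* and the exocyst genes *SEC8* and *SEC15*.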
